A study of Mus musculus with 2 samples.

Results

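The 9 genes Actc1, Acta1, Tpm1, Lmod2, Nebl, Actn2, Tcap, Ttn and Myom1 encode structural proteins of the sarcomere, the contractile unit of striated muscle. They were set against CTCF binding in newborn mouse heart. A binding site was taken when its summit lay within 100 kb of the gene's record in the GENCODE M21 annotation. This took 82 of 44533 summits, or 0.184% of the list, around 9 of the 21755 protein-coding genes annotated on chromosomes 1 to 19 and chromosome X. Of the 82 summits, 30 lay inside the gene records, 26 upstream and 26 downstream. The name thin filament and Z-disc genes is not exact for all 9, since myomesin 1 (Myom1) belongs to the M-band and titin (Ttn) spans from the Z-disc to the M-band.

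The study profiled CTCF by chromatin immunoprecipitation and sequencing (ChIP-seq) with a CTCF antibody, in heart of B6NCrl mice at postnatal day 0. There were 2 libraries, called replicate 1 and replicate 2, of 1 group, and the animals' sex was not collected. The labels tie both libraries to a single tissue sample and donor identifier, so differences between them may be technical only. With 1 group and no second condition or genotype there is no contrast, and no p-value is given. Whole heart was used, so binding in muscle cells and in other heart cells cannot be told apart, and peak lists hold no expression against which the tissue or the activity of a gene could be checked.

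CTCF is a zinc finger protein that binds a long, strand-specific DNA motif and, with cohesin, anchors chromatin loops. Loops tend to form between motifs that face each other, and CTCF sites can separate enhancers from promoters. In the sarcomere, actin, tropomyosin and their regulators form the thin filament, which is anchored in the Z-disc by alpha-actinin and its partners, while titin runs from the Z-disc to the M-band, where myomesin links the thick filaments.

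A peak's signal is the pooled value that the authors deposited for it, on a scale that is not stated, and the signals of the 2 libraries are each library's own. The optimal list is the longer of the authors' lists that passed a filter on irreproducible discovery rate (IDR). The core is a 14-base CTCF consensus, searched on both strands within 50 bp of the summit, and a summit was said to carry it with at most 2 mismatches. The strongest summit within 100 kb of each gene is shown with 8 bases on either side of its core. The core is in capitals and each sequence is written 5′ to 3′ on the strand of the core, from the RefSeq GRCm38.p6 assembly (mm10).
Actc1, chr2:114145697-114145726, minus strand, 1 mismatch: aacacactCCACCAGGTGGCATcatacctc
Acta1, chr8:123924942-123924971, plus strand, 1 mismatch: tgcaccatCCTGCAGGTGGCAGtagaggca
Tpm1, chr9:67044094-67044123, minus strand, 2 mismatches: ccaaatggCCAGCAGGAGTCGCaataggct
Lmod2, chr6:24530330-24530359, plus strand, 2 mismatches: ctttttgaCCAGCAGGTGGTGAcaaaagtt
Nebl, chr2:17644795-17644824, plus strand, 2 mismatches: gcctcgggCCACGTGGTGGCACtgttgatt
Actn2, chr13:12210449-12210478, plus strand, 0 mismatches: atatcctaCCACTAGATGGCAGcatcctac
Tcap, chr11:98342779-98342808, plus strand, 1 mismatch: cgtttctgCCACCAGAGGGCAAcctcggca
Ttn, chr2:76980408-76980437, minus strand, 1 mismatch: cactttgaCCACTAGGGGGCATtccttgct
Myom1, chr17:70968826-70968855, minus strand, 2 mismatches: tagaagtgTCACTAGGTGTCACtattattc
At Nebl and at Tcap a second core in the window matched equally well, and the one shown is nearer to the summit.

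The second set is the sequence at the summits within 1 kb of the 5′ end of a gene's record. Coding transcripts can also start further in, and summits inside Tpm1 and Ttn lay 129 and 241 bp from such internal starts. Those summits are not part of the second set. In the set, a core with 2 mismatches was found at Tpm1 and Actn2. At Myom1 the best match had 3 mismatches and at Lmod2 it had 4, so neither counts as a core.
Tpm1, chr9:67049379-67049408, minus strand: ctgggaggCCGGCAGGCGGCAGcgaatggg
Actn2, chr13:12340276-12340305, plus strand: aagagcctCCACCAGGGGGCCTcttctagt
Myom1, chr17:71002271-71002300, plus strand: cagcccggACGGGAGGGGGCGCctcgggga
Lmod2, chr6:24597496-24597596, plus strand, the 50 bases on either side of the summit: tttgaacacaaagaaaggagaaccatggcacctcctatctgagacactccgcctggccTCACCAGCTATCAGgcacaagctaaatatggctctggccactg

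CTCF was bound near the start of some of these genes and far from the start of others. Of the 9 genes, 6 had an optimal summit within 10 kb of the 5′ end of the record (Tpm1, Lmod2, Myom1, Actn2, Ttn and Tcap), where 50.8% of all protein-coding genes had one. Within 1 kb, 4 of the 9 had one (Tpm1, Lmod2, Myom1 and Actn2), against 21.4% of protein-coding genes. A summit inside the record was present at 5 of the 9 (Tpm1, Nebl, Actn2, Ttn and Myom1), against 46.4%. Actc1, Acta1, Lmod2 and Tcap, which had none, have records of 1.14 to 7.65 kb, and 17.5% of protein-coding genes under 10 kb had a summit inside. With 9 genes and no test, no difference from all genes is claimed. The median distance from 5′ end to nearest summit was 2.12 kb for the 9 genes and 9.64 kb for all protein-coding genes. In the strongest peaks of replicate 2 alone the medians were 0.517 kb and 9.45 kb. Among optimal peaks at or above the median signal they were 28.6 kb and 21.6 kb, so the order turned there. The median number of summits within 100 kb was 9 for the 9 genes and 7 for all, whose quartiles were 4 and 11.

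**Figure D1:**
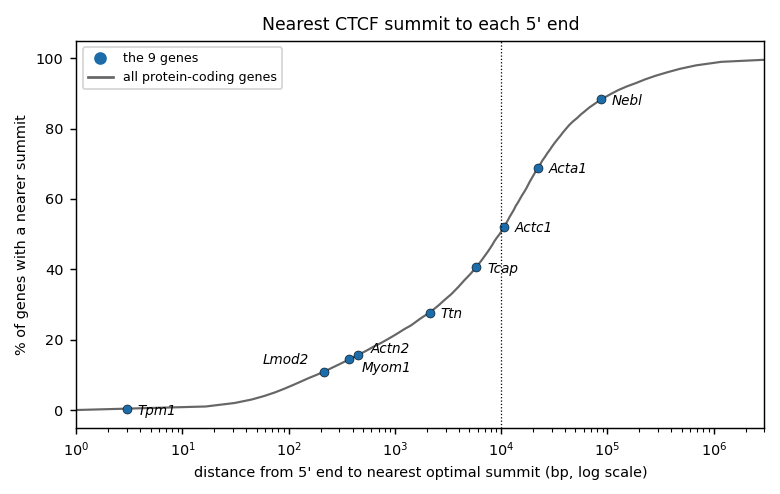
Distance in bp (log scale) from each gene's 5′ end to its nearest optimal CTCF summit on the horizontal axis, and the percent of protein-coding genes with a nearer summit on the vertical axis. Points are the 9 genes, the line is all protein-coding genes, and the dotted line marks 10 kb. Tpm1 lies at the near end, at 3 bp, and Nebl at the far end, at 86.65 kb.

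**Figure D2:**
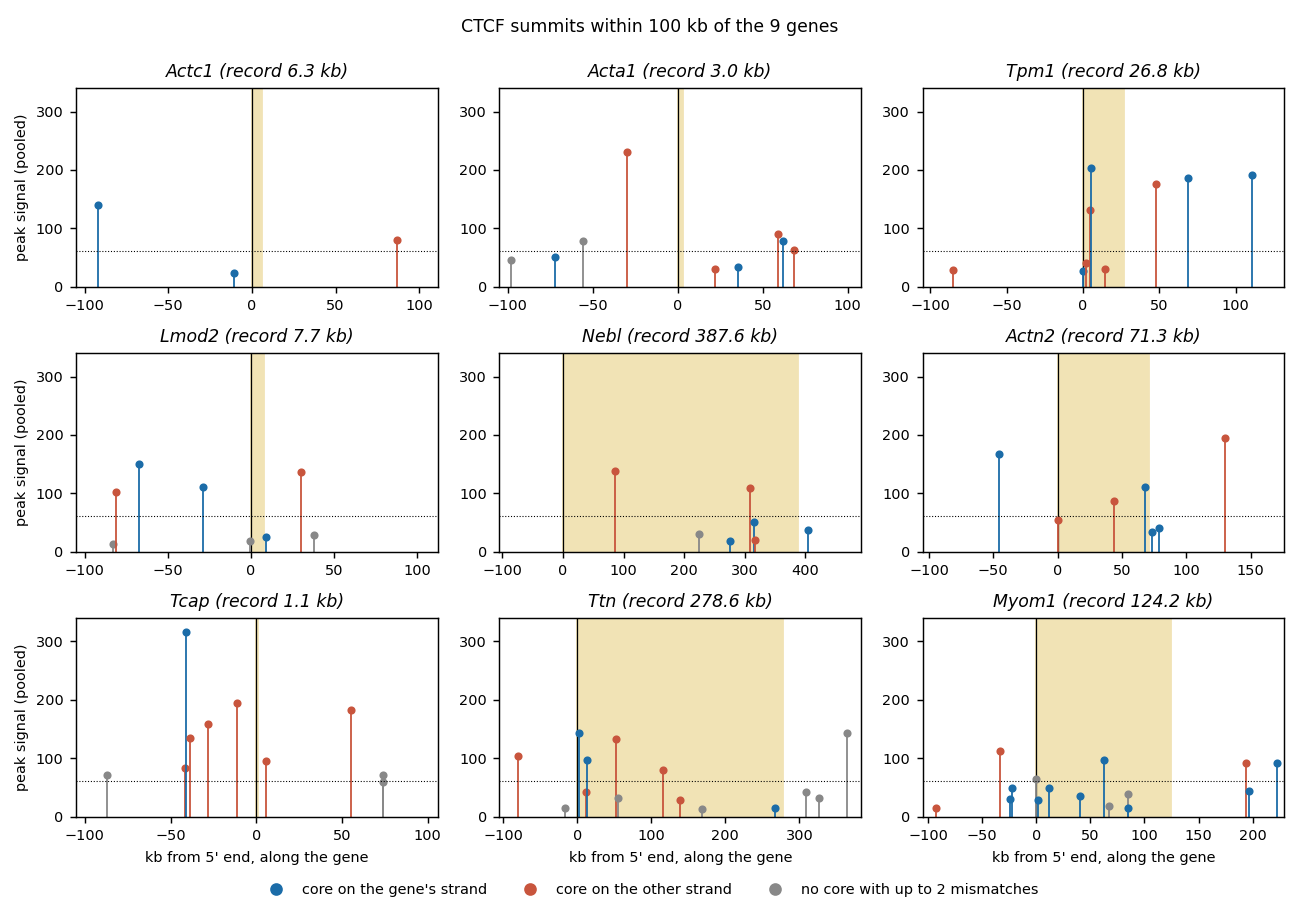
Optimal CTCF summits within 100 kb of each of the 9 genes, by distance in kb from the 5′ end along the gene (horizontal axis) and pooled signal (vertical axis). The shaded block is the gene record, colours give the strand of the core relative to the gene, and the dotted line is the median signal of all optimal peaks, 60.8. Summits crowd the first part of Tpm1 and are spread through Ttn, Myom1 and Nebl, while Actc1, Acta1, Lmod2 and Tcap have none inside.

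The 2 striated muscle actins, which form the backbone of the thin filament, both lacked a summit near the start. Actc1 (ENSMUSG00000068614.7, chr2:114047282-114053548, minus strand) encodes cardiac alpha-actin. It had 3 summits within 100 kb, none inside, and 18.2% of protein-coding genes had fewer. The nearest lay 10.65 kb upstream, in an intron of the noncoding records A530058N18Rik and C130080G10Rik. Its signal was 15.3 in replicate 1 and 6.90 in replicate 2 (pooled 23.8), a log2 ratio of replicate 2 to replicate 1 of -1.15, and the summit was not in the authors' stricter, conservative list. The strongest, 92.16 kb upstream in a coding exon of Aqr, a splicing helicase gene, had 77.1 in replicate 1 and 63.3 in replicate 2 (pooled 140.0). On the downstream side the only summit was 80.7 kb beyond the record, between genes, at 49.1 in replicate 1 and 31.8 in replicate 2. No optimal summit lay in the 97.62 kb between the weak upstream site and the downstream one. Within 10 kb of the 5′ end the relaxed list of 300000 pooled peaks held 7 summits, of which the strongest was 3.97 kb upstream. It had 5.76 in replicate 1 and 7.57 in replicate 2, ranked 45820 in that list and had a best core match with 3 mismatches.

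Acta1 (ENSMUSG00000031972.5, chr8:123891769-123894751, minus strand) encodes skeletal alpha-actin. It had 9 summits within 100 kb, 4 upstream and 5 downstream, and none inside its 2.98 kb. The nearest to the 5′ end lay 22.02 kb away and 19.04 kb beyond the 3′ end. It had 8.57 in replicate 1 and 19.1 in replicate 2, a pair of unlike values, and was not in the conservative list. On the upstream side the nearest summit was also the strongest, 30.18 kb from the 5′ end in an intron of the nucleoporin gene Nup133. It had 116 in replicate 1 and 118 in replicate 2 (mean 117 ± 1.47, SD, n = 2), for a pooled 231 and rank 1273 of the optimal list. A much longer record, Gm20388, covers all 9 of these summits, so that their placing in introns rests partly on it. Of the 3 pooled relaxed summits within 10 kb of the 5′ end, the strongest lay at 3.30 kb, with 5.42 in replicate 2 and no match in replicate 1.

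Tpm1 (ENSMUSG00000032366.15, chr9:67022590-67049406, minus strand) encodes alpha-tropomyosin, which lies along actin and controls access of myosin. Its record had the closest spaced summits of the 9 genes, with 5 inside 26.82 kb, or 18.6 per 100 kb. Among 3281 protein-coding genes of 20 to 35 kb the median was 1 summit inside, and 29 (0.884%) had 5 or more. These counts are a description and were not tested. The summit at the 5′ end, 3 bp inside the record, was weak and unlike between libraries, with 6.42 in replicate 1 and 20.4 in replicate 2 (pooled 26.7), and it was not in the conservative list.

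The strongest summit inside Tpm1 lay instead at the gene's internal start. Tpm1 is transcribed from a first start, which gives the long tropomyosins of muscle, and from an internal one, which gives short cytoskeletal forms. The annotation has 10 coding transcripts that begin within 0.26 kb of the record's end, with 843 to 978 coding bases, and 6 that begin 5.44 to 5.7 kb into it, with 735 to 753 coding bases. The summit at chr9:67044091 lay 129 to 382 bp upstream of the starts of those 6. It had 99.7 in replicate 1 and 102 in replicate 2 (mean 100.9 ± 1.77, SD, n = 2), for a pooled 203.8. The weak summit at the record's end lay 3 to 260 bp from the 10 first starts. Next to the internal starts, 4.28 kb into the record, a second strong summit had 65.8 in replicate 1 and 65.7 in replicate 2 (pooled 132). Its core lay on the opposite strand to that of the stronger one. The other inside summits, 1.94 and 14.51 kb into the record, had pooled signals of 40.04 and 29.9. Outside the record, 3 strong summits followed downstream, at pooled signals of 175, 186 and 191, the nearest 21.28 kb beyond the 3′ end. On the upstream side the only summit was 85.2 kb away, with 17.9 in replicate 1 and 10.4 in replicate 2. All 9 summits carried a core.

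Lmod2 (ENSMUSG00000029683.7, chr6:24597762-24605414, plus strand) encodes leiomodin 2, which nucleates and lengthens actin filaments in heart muscle. Weak sites bounded its record closely, and strong ones stood further off. The summit 216 bp upstream of the 5′ end had 10.5 in replicate 1 and 6.18 in replicate 2 (pooled 17.9), and its best core match had 4 mismatches. The next, 1.21 kb beyond the 3′ end, had 8.05 in replicate 1 and 17.4 in replicate 2 (pooled 25.7), with a core of 1 mismatch. Neither was in the conservative list, and replicate 1 was the higher at one and replicate 2 at the other. Among the 8 summits of the locus the strongest was 67.42 kb upstream, in an intron of Asb15, with 75.8 in replicate 1 and 73.6 in replicate 2 (pooled 151). A summit in an exon of Wasl, an actin nucleation factor gene, outside its coding sequence and 30.1 kb from the 5′ end, had a core with 0 mismatches and a pooled signal of 136. The weakest of the 8, at 13.4 and 35 bp from the 5′ end of Iqub, had no match in replicate 1.

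Nebl (ENSMUSG00000053702.16, chr2:17343909-17731464, minus strand) encodes nebulette, a nebulin relative at the Z-disc end of the thin filament of heart. Its record, of 387.56 kb, is the longest of the 9 and held 6 of the locus's 7 summits. The nearest to the 5′ end was 86.65 kb inside, so that 88.3% of protein-coding genes had a nearer one. It was also the strongest, with 66.2 in replicate 1 and 69.8 in replicate 2 (pooled 139). A stretch of 188.13 kb around the 5′ end held no optimal summit. The coding transcript nearest to that end has 810 coding bases, while the longest coding transcript, with 3042 coding bases, starts 270.53 kb further in. The nearest summit to this internal start lay 5.58 kb away, in intron 2, with 6.71 in replicate 1 and 11.1 in replicate 2 (pooled 17.7). Further in, pooled signals were 109.6 in intron 8, and 51.5 and 19.98 in intron 9, numbered along that transcript. The only summit outside the record was 17.11 kb beyond the 3′ end, at 37.3.

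A weaker peak stood at the upstream start of Nebl. Of the 4 pooled relaxed summits within 10 kb of the 5′ end the strongest lay 313 bp upstream, with 6.13 in replicate 1 and 8.23 in replicate 2 (pooled 15.5), at rank 44790 in the relaxed list. Replicate 2 ranked it among its own 44533 strongest peaks and replicate 1 did not. It carried a core with 1 mismatch, shown because it lies close to the 5′ end but is not in the optimal list.
Nebl, relaxed peak, chr2:17731758-17731787, minus strand: aagtgcggCGACTAGGGGGCACcaagaaag

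At the Z-disc, Actn2 (ENSMUSG00000052374.16, chr13:12269426-12340760, minus strand) encodes alpha-actinin 2, which crosslinks actin there. It had 7 summits within 100 kb, all with a core and all in the conservative list, and 3 of them were inside the record. The summit nearest the 5′ end, 447 bp into the record in intron 1, had 25.3 in replicate 1 and 27.9 in replicate 2 (pooled 53.9). Signals were higher deeper in the gene, at 86.4 in intron 7 and 110.4 in intron 18. Intron 18's summit, the strongest inside, had 58.3 in replicate 1 and 51.3 in replicate 2. Upstream, the nearest summit was 45.74 kb away, with 85.1 in replicate 1 and 83.8 in replicate 2 (pooled 167). Downstream, the nearest was 2.08 kb beyond the 3′ end at 33.1. The strongest of all lay 58.96 kb beyond the 3′ end in an intron of the methionine synthase gene Mtr, with 113 in replicate 1 and 81.6 in replicate 2 (pooled 195). The number of summits near Actn2 depended on the library, since the 44533 strongest peaks of replicate 1 alone gave 12.

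Tcap (ENSMUSG00000007877.2, chr11:98383811-98384953, plus strand) encodes telethonin, which caps the Z-disc end of titin. Its record of 1.14 kb had 10 summits within 100 kb, all outside it and all in the conservative list. Their median signal was 115, after Tpm1 (132) the highest of the 9 loci, and 9 of 10 were above the median of all optimal peaks. The strongest, 41.03 kb upstream between genes, had 158 in replicate 1 and 160.4 in replicate 2 (mean 159 ± 1.38, SD, n = 2). Its pooled 317 ranked it 99 in the optimal list and first among the 82. The nearest on the upstream side, 11.2 kb away in an intron of Stard3, a sterol transfer gene, had 105.2 in replicate 1 and 88.5 in replicate 2 (pooled 194) and a core with 0 mismatches. Nearest to the 5′ end was a summit 5.81 kb downstream in an exon of Pgap3 outside its coding sequence, with 57.6 in replicate 1 and 38.6 in replicate 2 (pooled 95.6). Of the 7 cores at this locus, 6 lay on the minus strand, and the strongest summit's was the only one on the plus strand. A summit 0.52 kb upstream of Tcap was in the conservative list but not in the optimal one. It had 7.35 in replicate 1 and 9.38 in replicate 2 (pooled 16.9).

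Ttn (ENSMUSG00000051747.14, chr2:76703980-76982547, minus strand) encodes titin, the elastic filament that joins Z-disc and M-band. It had 14 summits within 100 kb, of which 9 lay inside its 278.57 kb. That was 3.23 summits per 100 kb of record, and 78.5% of 2135 protein-coding genes of 100 to 400 kb had fewer per 100 kb. In the same class Nebl had 1.55 (43.5% had fewer) and Myom1 had 5.63 (95.0% had fewer), while the median of the class was 1.77. A summit 2.12 kb into the record in intron 1 had 76.7 in replicate 1 and 64.9 in replicate 2 (pooled 143.4). One 85.69 kb beyond the 3′ end, between genes, was as strong, with 81.03 in replicate 1 and 59.9 in replicate 2 (pooled 143.3), and its best core match had 3 mismatches. The intron 1 summit lay 241 bp from the start of a coding transcript with 100401 coding bases, and all 14 bases of its core were in repeat-masked sequence. The next strongest inside were 133 in intron 43 and 97.8 in intron 8. On the upstream side the nearest summit was 15.94 kb away, with 10.2 in replicate 1 and 4.07 in replicate 2. Beyond the 3′ end the nearest was 30.09 kb away, near the start of Fkbp7, with 24.1 in replicate 1 and 19.6 in replicate 2.

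Of the 9 summits inside Ttn, 4 lay in coding exons, numbered here along the transcript with the most coding bases, and all 4 were weak. That transcript has 105639 coding bases in a record of 278.57 kb, so much of the record is coding. The share of all optimal summits in coding exons was not determined, so the count has no background. Exon 44's summit had 9.24 in replicate 1 and 19.6 in replicate 2, while exon 148's had 19.4 in replicate 1 and 9.41 in replicate 2. Exon 339's had 9.39 in replicate 1 and 5.09 in replicate 2. Exon 209's had 3.26 in replicate 1 and 7.95 in replicate 2, and with a pooled 12.5 it was the weakest of all 82. The library that was higher was not the same at all 4. The sequences are shown because each summit falls in protein-coding sequence, and the best core matches had 3, 1, 5 and 1 mismatches in the order below.
Ttn exon 44, chr2:76927086-76927115, plus strand: ccttccagCCTCAGGGTGGCAGtgctggac
Ttn exon 148, chr2:76843367-76843396, plus strand: tggctgtaCCTCTAGGTGGCAGcacctcct
Ttn exon 209, chr2:76814370-76814399, minus strand: gtgaaaacACTGGAGGAGGAAGtcacggtg
Ttn exon 339, chr2:76715165-76715194, minus strand: tcagtgagCCACTAGAGGTCGCctccattg

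Myom1 (ENSMUSG00000024049.15, chr17:71002633-71126856, plus strand) encodes myomesin 1, which bridges thick filaments in the M-band. It had 15 summits within 100 kb, the most of the 9 genes, and 88.6% of protein-coding genes had fewer. Of the 15 summits, 7 were inside the record. The window includes the record, so long genes have longer windows. Per 100 kb of window Tcap had 4.97 summits and Myom1 4.63, and 73.7% of protein-coding genes had fewer than Myom1. The nearest to the 5′ end, 371 bp upstream, had 27.9 in replicate 1 and 35.7 in replicate 2 (pooled 65.03), but it is shared. It lay 54 bp from the 5′ end of a Myl12b record and within 1 kb of that of Myl12a, both genes of regulatory myosin light chains. The record's end also belongs to a transcript of 701 coding bases, while the longest coding transcript starts 16.89 kb further in, where the nearest summit was 5.50 kb upstream at a pooled 48.8. Inside, the strongest was in intron 12, with 60.5 in replicate 1 and 36.2 in replicate 2 (pooled 97.4). The strongest of the locus lay 33.8 kb upstream at the start of the noncoding AC154187.1, with 66.5 in replicate 1 and 45.2 in replicate 2 (pooled 113). Downstream, the nearest was 69.4 kb beyond the 3′ end in an intron of the lipin gene Lpin2, with 45.9 in replicate 1 and 45.5 in replicate 2. The weakest of the 15, 92.19 kb upstream at 14.2, had no match in replicate 2. A long noncoding record, Gm26561, covers all 15 summits.

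The peaks near these genes covered nearly the whole range of signal in the list. Pooled signals of the 82 ran from 12.5 at Ttn to 317 at Tcap, with quartiles of 30.8, 63.8 and 113, against 27.5, 60.8 and 128 for all optimal peaks. Of the 82, 42 were above the median of the list, 7 were in its top decile (184 and above) and 6 in its bottom decile (17.6 and below). The 30 summits inside the records had a median of 41.1 and the 52 outside had 77.7. The outside set also holds the genes with no summit inside, among them Tcap. By gene, the medians inside and outside were 40.0 and 181 at Tpm1, 86.4 and 104 at Actn2, and 36.1 and 57.5 at Myom1. They were 42.1 and 42.5 at Ttn, and 41.1 and 37.3 at Nebl, where 1 summit lay outside. By place, 10 lay within 1 kb of the 5′ end of some gene, 5 in coding exons, 3 in other exons, 47 in introns and 17 between genes. The shares by place over all optimal summits were not determined, so these counts have no background. Some placings in introns rest only on long records such as Gm20388 near Acta1. The conservative list held 68 of the 82 (82.9%), against 89.4% of all optimal peaks. In turn 7 summits in these windows were in the conservative list alone, all outside the records, with signals of 12.5 to 19.5.

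**Figure D3:**
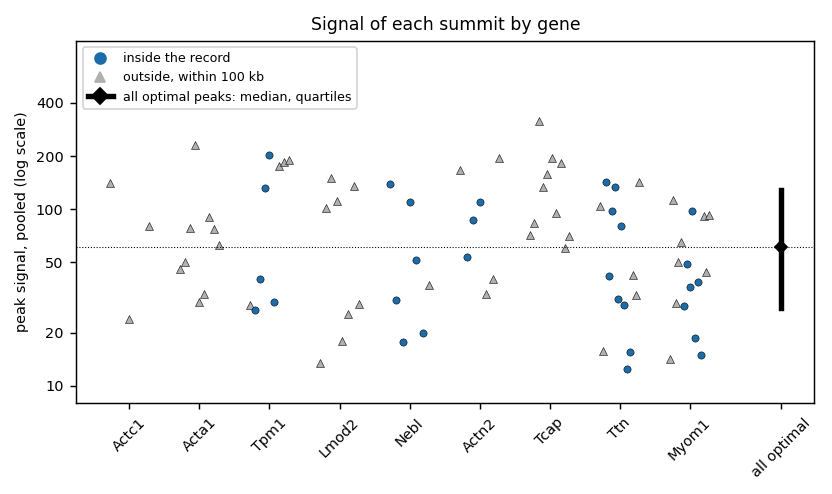
Pooled signal (log scale, vertical axis) of each optimal summit within 100 kb of the 9 genes, with circles inside the gene record and triangles outside. The diamond and bar at the right are the median and quartiles of all optimal peaks (27.5 to 128). At Tcap 9 of 10 summits lie above the dotted line at the median of all optimal peaks, while Ttn spans 12.5 to 143.

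The signals of the libraries were more alike at strong sites than at weak ones. Of the 82 summits, 80 (97.6%) were found within 100 bp in both libraries, against 97.1% of all optimal summits. Replicate 2 was the lower at 56 of the 80 (70%), against 74.3% of the list, and the median log2 ratio of replicate 2 to replicate 1 was -0.23 near the 9 genes and -0.22 over the list. Where the pooled signal was below the median of the list, the absolute log2 ratio had a median of 0.68 over 38 summits near the 9 genes, against 0.44 over all. Where it was above, the median was 0.27 over 42 summits, against 0.24. As a description, the signals of the 2 libraries had a Spearman correlation of 0.914 over the 80 summits and of 0.947 over the list. These summits share both libraries and had passed the authors' filter on repeatability.

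**Figure D4:**
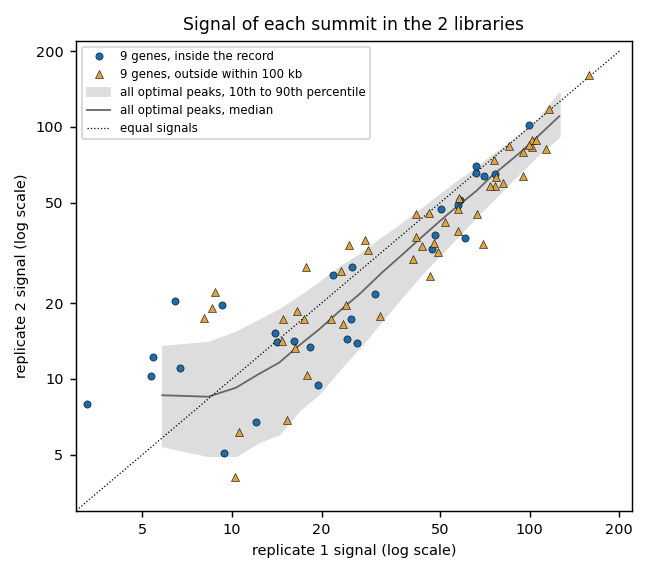
Signal of each optimal summit near the 9 genes in replicate 1 (horizontal axis) and replicate 2 (vertical axis), both on log scales, with circles inside the gene record and triangles outside. The grey band and line are the 10th to 90th percentile and the median of all optimal peaks, and the dotted line is equality. Points scatter more at low signals, where a few stand above the band. Some at higher signals also lie outside it, such as 1 at Lmod2 (69.8 in replicate 1 and 34.3 in replicate 2) and 1 at Myom1 (60.5 and 36.2), both below it.

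Most of the summits carried the CTCF core. A core with at most 2 mismatches was found at 64 of the 82 (78.0%), against 73.5% of all optimal summits. In windows of the same size placed 1000 bp to the left and right, 6 (7.32%) and 3 (3.66%) of the 82 had one, against 2.79% and 2.94% over the list. The best match had 0 mismatches at 8 of the 82, 1 at 26 and 2 at 30, while 14 had 3 mismatches and 4 had more. Core-bearing summits had a median signal of 85.2 near the 9 genes and those without had 35.6, against 78.7 and 31.3 over the list. Inside the records 25 of 30 summits (83.3%) had a core and outside 39 of 52 (75%).

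The strand of the cores showed no common direction relative to the genes. Of the 25 cores inside the records, 13 lay on the gene's own strand, against 47.9% of cores inside protein-coding genes in general. All 5 inside Myom1 were on the gene's strand, while 2 of 5 were at Tpm1, 2 of 5 at Nebl, 1 of 3 at Actn2 and 3 of 7 at Ttn. The nearest core-bearing summits on either side of the record faced each other (convergent) at 2 of 9 genes, Actc1 and Myom1, against 29.4% of protein-coding genes with a core on both sides. They pointed away from each other at 1, Nebl, against 25.2%, and the other 6 pairs lay on the same strand. The pair around Actc1 spanned 97.62 kb and that around Myom1 216.42 kb, with the 5′ ends of other protein-coding genes between them in both cases. In the peaks of replicate 2 alone none of the 9 had a convergent pair, and in those of replicate 1 alone 3 had.

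Part of the cores lay in repeats, and Myom1 held 7 of these 14. Of the 64 cores, 14 (21.9%) had at least 7 of their bases in repeat-masked sequence, against 18.1% over the list. This was so for 7 of 12 cores at Myom1, and at the other 8 genes for 7 of 52. Masked cores had a median signal of 47.0 near the 9 genes and unmasked ones 94.0, against 36.6 and 92.4 over the list. The same first 12 bases, CCAGAAGAGGGC, opened the cores of 5 of the 82 summits (6.10%), all masked, of which 4 were at Myom1 and 1 at Tpm1. This stretch was picked after the sequences were seen, as the commonest opening among the 64, where the next was found 2 times. Over the list, 6.84% of optimal summits had a core that opened with it. As a share of cores it was 7.81% near the 9 genes and 9.31% over the list. Of those in the list, 99.5% were masked, and their summits had a median signal of 32.6. The 5 sites are shown to let the shared stretch and its flanks be compared.
Tpm1 intron 4, chr9:67034872-67034901, plus strand: ctcagatgCCAGAAGAGGGCGCcataaaaa
Myom1 upstream, chr17:70979817-70979846, plus strand: cacacaggCCAGAAGAGGGCAGcagatctc
Myom1 inside, chr17:71004272-71004301, plus strand: tctacacaCCAGAAGAGGGCATcagatccc
Myom1 intron 5, chr17:71042845-71042874, plus strand: catgcagaCCAGAAGAGGGCACcagatctc
Myom1 downstream, chr17:71199522-71199551, plus strand: aggagaggCCAGAAGAGGGCATcggatctt
Their pooled signals were 29.9 at Tpm1 and, in the order shown, 49.9, 28.2, 36.1 and 44.0 at Myom1, all below the median of the list.

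**Figure D5:**
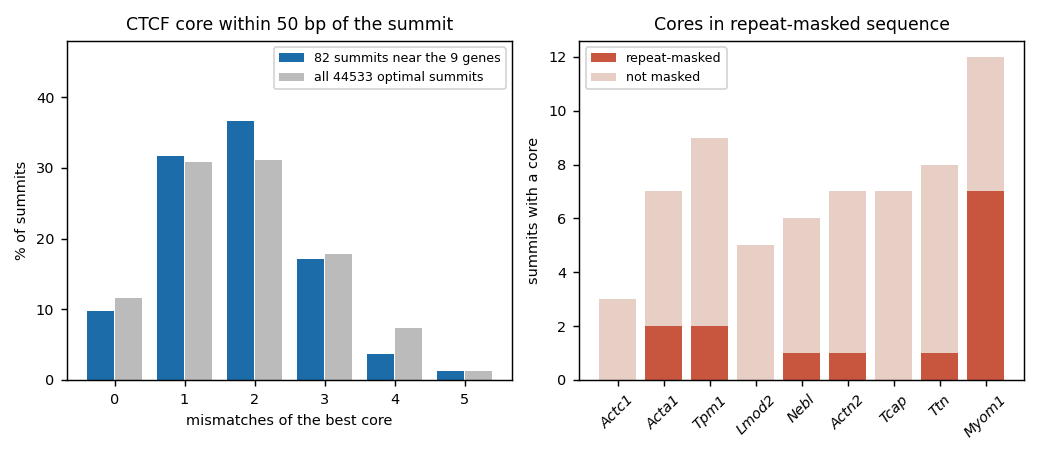
Left, percent of summits by number of mismatches of the best core within 50 bp, for the 82 summits near the 9 genes (blue) and for all optimal summits (grey). Right, number of core-bearing summits at each gene, split by whether at least 7 bases of the core are repeat-masked. The shares on the left are close to each other (78.0% and 73.5% with at most 2 mismatches), and Myom1 holds 7 of the 14 masked cores.

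The promoter windows in the RefSeq table, which run from 250 bases before to 50 after a start, matched 8 of the 9 genes by symbol, all but Tcap. An optimal summit fell in a window of Tpm1 and of Lmod2 only. The share of all windows that held an optimal summit was not determined, so that count has no background. A core with at most 2 mismatches was found in a window of Actc1, Tpm1, Nebl and Actn2, and such a core was present in 14.4% of all 32817 windows. The former counts genes, of which Nebl has several windows, and the latter counts single windows, so they are not like for like. At Actc1 and Nebl no optimal summit lay within 10 kb of the 5′ end, so that a letter match in the window did not come with a listed peak. The Actn2 window, whose best match had 1 mismatch, held no optimal summit either. The summit 447 bp into the Actn2 record and its core lay outside that window. At Lmod2 a peak was listed with no core in its window.

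Other genes of the thin filament, Z-disc and M-band, and relatives of them, were taken from a list of 58, all of which had a gene record. The list is not confined to striated muscle genes, since it holds Acta2, Actg2, Lmod1, Tpm4, Actn1 and Actn4. Of those named, only Tpm4 had an optimal summit within 10 kb of the 5′ end. The genes named are examples, and the 58 were not sorted by where they are expressed, so no contrast with the rest is drawn. Of the 58, 40 (69.0%) had an optimal summit within 10 kb of the 5′ end, against 50.8% of all protein-coding genes. They were 15 of 20 thin filament genes, 20 of 32 Z-disc genes and 5 of 6 M-band genes, set against the same share. Their median distance to the nearest summit was 2.75 kb, against 9.64 kb for all. None of the 58 lacked a summit within 50 kb, as 17.3% of all protein-coding genes did. Neighbours such as Myoz1 and Synpo2l had the same strongest site within 10 kb (pooled 162), so the 58 are not independent. The shares were not tested, and the genes were listed with earlier results known. The strongest such site was 9.65 kb from Ankrd2, a titin-binding ankyrin repeat gene, with 133 in replicate 1 and 112 in replicate 2 (pooled 246). Sites near Tnnc1, the cardiac troponin C gene, near Xirp1, an actin-binding repeat protein gene, and near Lmod3, the leiomodin of skeletal muscle, followed at 231, 219 and 207. At Tnnc1 the libraries gave 126 and 104, at Xirp1 119 and 99.7, and at Lmod3 122 and 84.7, in the order replicate 1, replicate 2.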

How the data were processed

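CTCF ChIP-seq peak lists of 2 libraries of newborn (day 0) B6NCrl heart were used. Per the text files deposited beside them, the authors called 3 relaxed lists of 300000 peaks on the alignments of replicate 1, replicate 2 and both together, each against a control alignment, and derived the optimal and conservative IDR lists from these, on mm10. For the aligner and the peak caller, names and versions were not given in the sources used. The signal of each peak is the deposited value, with a scale that is not stated; pooled signals are about the sum of the libraries', and libraries were not rescaled. Read depth is not in the peak lists, so a signal has no counting interval.

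Summits are the peak start plus the authors' offset. Gene records, exons and coding transcript starts come from GENCODE M21, and sequence and repeat masking from RefSeq GRCm38.p6. A library's own signal is that of its nearest relaxed summit within 100 bp. A core was called masked with at least 7 masked bases. Backgrounds over genes leave out chromosome Y and unplaced sequence. Shares and medians are descriptions with no test, because summits and genes are not replicates. The 9 genes and the list of other sarcomere and related genes were chosen with earlier results of these data known. Summits named are each gene's strongest, strongest inside, nearest to the 5′ end and nearest on either side. Where none lay within 10 kb, the strongest relaxed one is named too, as are the 4 strongest sites among the other listed genes. Further ones were chosen after their values were seen. The alternatives were the conservative list, each library alone, a median-signal threshold, and other windows, mismatch limits, matching distances and 5′ ends, and those for the median nearest distance were added after the data were seen. The core search, matching and distances were tested on simulated data. Python 3.11.15, pandas 2.3.3, numpy 2.4.6, SciPy 1.17.1, pysam 0.24.0 and matplotlib 3.10.9 were used.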

Additional observations from a re-analysis of the deposited data

How the results depend on the processing

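Counts of summits over the 9 genes changed little with the list or library and more with the signal threshold and the window. The 82 summits within 100 kb were 85 to 85 with either library left out, 42 at or above the median signal of the list and 136 within 200 kb. The 30 inside were 28 to 30 with either library left out and 11 at the median-signal threshold. The 6 genes with a summit within 10 kb of the 5′ end were 6 to 7 with either library left out. Of these summits 78.0% had a core, against 80% in the conservative list, 75.3 to 75.3% with either library left out, 88.1% at the median-signal threshold, 81.0% within 50 kb, 78.7% within 200 kb, 41.5% with at most 1 mismatch and 95.1% with at most 3. The median signal relative to that of the list, 1.05, was 1.21 in the conservative list, 0.870 to 1.01 with either library left out, 0.875 at the median-signal threshold, 0.7501 within 50 kb, 0.837 within 200 kb, and 0.939 by replicate 1's own signals (0.949 with matching within 250 bp), against 1.12 (1.13) by replicate 2's, so its side of 1 depended on the setting. Convergent pairs, 2 of 9, were 0 to 3 with either library left out and 4 at the median-signal threshold. In settings added after the data were seen, the median distance from 5′ end to nearest summit, 2.12 kb, was 0.517 to 2.14 kb with either library left out and 28.6 kb at the median-signal threshold. Of 36 alternative counts per gene, 8 differed by over 1.5 times, 7 of them at the median-signal threshold and the other at Actn2 without replicate 2 (12 for 7). The cause was not tested. No paired analysis was possible because there is 1 group. Both libraries may come from 1 animal, so their spread does not measure that between animals, and weak sites such as those at the 5′ ends of Tpm1 and Lmod2, which are not in the conservative list, rest on low signals.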
